A study of Mus musculus with 39 samples.

Results

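The 8 genes described here are Apoa1, Apoa2, Apob, Apoc1, Apoc3, Apoe and Apoh, which encode apolipoproteins or a related plasma protein, and Fabp1, which encodes the liver fatty acid binding protein. They were chosen by symbol from the 10061 gene symbols measured, and all 8 were measured, on 12 of 13568 transcript rows. Apoc3 had 4 of these rows, Apoc1 had 2 and the other genes 1 each, and rows of a symbol were summed. The values came from 39 single cells of adult mouse liver in 1 labelled group. Every cell was GFP positive by flow sorting, came from a Krt19CreERT/Rosa26CAG-EGFP mouse and was picked singly into lysis buffer. In such mice an inducible Cre that follows Krt19, which encodes a keratin found in bile ducts, switches on a GFP reporter. By this design a GFP positive cell made Cre itself or descended from one that had. Whether that held for each sorted cell was not tested. The model is therefore meant to mark descent and not current Krt19. The labels state neither the animals behind the cells, nor a treatment schedule, nor any batch.

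Lipids travel in blood as lipoprotein particles, and apolipoproteins are the proteins that build these particles and direct their traffic. Hepatocytes secrete very low density lipoprotein on a single large Apob protein and supply Apoa1 and Apoa2 for high density lipoprotein, while the small C apolipoproteins and Apoe exchange between particles and govern their breakdown and uptake. Apoe is also made by macrophages. Fabp1 stays inside the cell, where it is an abundant carrier of fatty acids in hepatocytes.

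All levels are given in CPM, a normalised read count turned back from the deposited log2 scale, with the scaling of each cell as deposited. A median of 2985 symbols per cell lay at 1 CPM or more, with a range of 1866 to 5298. The most frequent rounded value above 0 in a cell was taken as the worth of 1 read and is called its step. In cells 1 to 37 it was 0.0241 to 0.273 CPM, so 3 reads stood for 0.0723 to 0.818 CPM. The depth of cells 38 and 39 is unknown. A gene with the lowest value is called listed at 0, since in single cells that can be a missed transcript. Cells are not replicates of a condition, and no test, standard error or p-value was made from them. Intervals of shares are exact Clopper-Pearson 95% intervals, and they cover counting error only.

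Cells were grouped without the 8 genes, on 107 markers of liver cell types. That gave 6 hepatocyte-like cells, numbers 1 to 4, 38 and 39, and 33 others. In the hepatocyte-like cells 35 to 42 of 42 hepatocyte markers reached 100 CPM, against 0 to 18, with a median of 2, in the 33 others. Division of the same tree into 4 groups, chosen after the data were seen, kept the 6 cells and split the 33 into 22 cholangiocyte-like cells, 7 cells with mesothelial and collagen markers, and 4 cells with blood cell markers. The groups of 7 and 4 mixed several marker lists and have no cell type name. Krt19 was listed at 0 in all 6 hepatocyte-like cells and was at 100 CPM or more in 15 of the 33 others. It was itself a cholangiocyte marker used in the grouping, so this difference is partly a product of the groups. Hepatocyte-like cells also stood apart in other transcripts. Rn45s, the ribosomal RNA precursor, had 1344 to 8215 CPM in them, against 90310.1 to 571852 CPM in the others, and reads assigned to Rorb had 5797 to 95636 CPM, against 19.5 to 133 CPM. The labels name no batch, so the type of these 6 cells and the way their libraries were made cannot be told apart.

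Most of the 8 genes were abundant together in a few cells. At 100 CPM or more, 5 or more of the 8 genes were found in 6 of 39 cells (15.4%, interval 5.86% to 30.5%), and these were the 6 hepatocyte-like cells. Of these 6 cells, 5 had exactly 7 genes at that level, with Apob missing, and cell 4 had all 8. The highest number in any of the 33 other cells was 3, reached by 4 cells. The 8 genes made up 4.35% to 6.49% of the summed CPM of a hepatocyte-like cell, against 0% to 1.84% in the others. Whole cells were therefore either rich in nearly the full set or held at most a partial one.

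**Figure D1:**
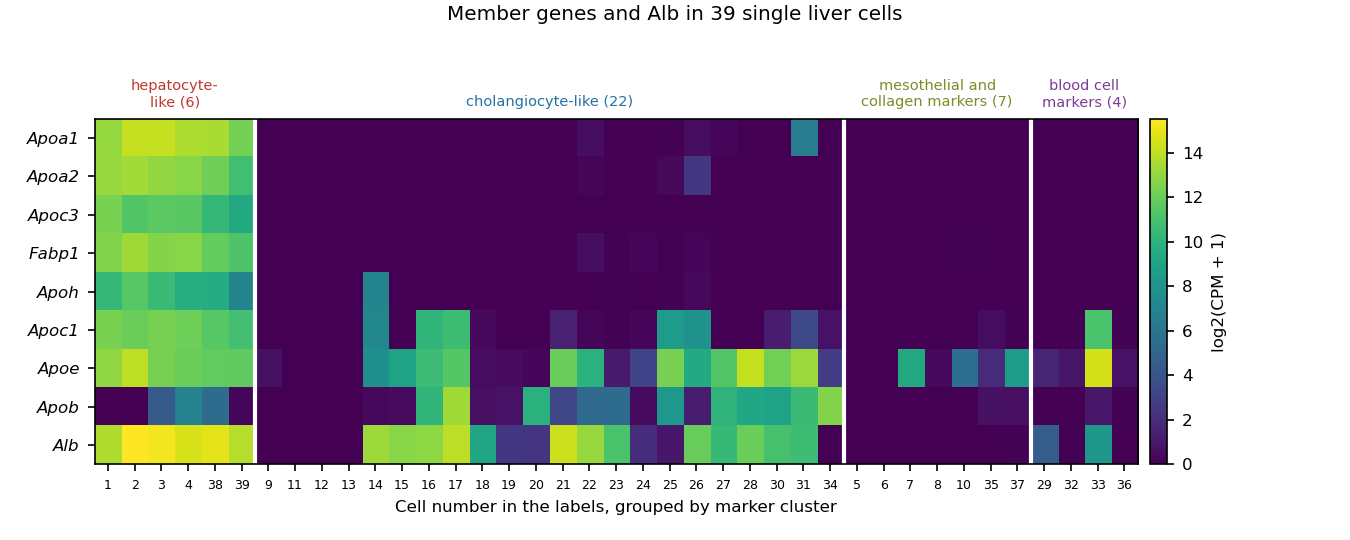
Level of the 8 genes and of Alb in each of 39 cells, as log2(CPM + 1) by colour, with cells in columns ordered by marker group and white lines between groups. Apoa1, Apoa2, Apoc3, Fabp1, Apoh, Apoc1 and Apoe fill the 6 hepatocyte-like columns on the left, while Apoe, Apob, Apoc1 and Alb are patchy among the 22 cholangiocyte-like cells.

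Of the 8 genes, 4 (Apoa1, Apoa2, Apoc3 and Fabp1) had their lowest hepatocyte-like value above their highest value in any other cell, as did 1.76% of all 10061 symbols. None of the 8 lay wholly the other way round, as 0.0596% of all symbols did. By mean CPM, 6 of the 8 were at least 4 times as high in hepatocyte-like cells, as were 9.54% of all symbols, and 1 of the 8, Apob, was at most 1 in 4 of the level in other cells, as were 63.5% of all symbols. The median difference of mean log2(CPM + 1), hepatocyte-like minus other, was 10.51 over the 8 genes and -0.37 over all symbols. The value of Apoc3 in that median depends on the pseudocount, because Apoc3 was listed at 0 in all other cells. The 8 genes were chosen with results of these cells known, so these counts describe them and support nothing further.

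Promoters of 5 genes are shown because these genes divided the cells differently, with Fabp1, Apoa1 and Apoa2 confined in these 39 cells to the hepatocyte-like group at 100 CPM, Apoe met in all groups, and Apob met in cholangiocyte-like cells. They are RefSeq sequences of GRCm38.p6, from 250 bases before to 50 bases after the start in that table, written 5′ to 3′ along the gene. Capitals mark every match on either strand to TATAAA (the TATA box), GTTAAT (part of the site of the liver factor HNF1) and AAAGGTC or AAAGTCC (words of the kind bound by HNF4). The table held 6 of the 8 genes.
Fabp1 (chr6:71199629-71199928, plus strand): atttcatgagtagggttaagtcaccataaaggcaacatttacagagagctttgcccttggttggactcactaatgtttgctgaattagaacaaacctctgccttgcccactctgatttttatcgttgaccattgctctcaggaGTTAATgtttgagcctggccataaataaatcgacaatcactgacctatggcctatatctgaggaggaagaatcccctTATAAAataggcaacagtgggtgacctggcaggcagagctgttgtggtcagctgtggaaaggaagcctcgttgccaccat
Apoa1 (chr9:46228380-46228679, plus strand): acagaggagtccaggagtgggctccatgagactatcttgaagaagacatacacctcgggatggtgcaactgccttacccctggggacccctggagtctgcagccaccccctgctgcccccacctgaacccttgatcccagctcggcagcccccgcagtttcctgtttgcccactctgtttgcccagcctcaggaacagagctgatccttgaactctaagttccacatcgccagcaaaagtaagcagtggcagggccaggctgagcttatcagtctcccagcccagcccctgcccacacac
Apoa2 (chr1:171224804-171225103, plus strand): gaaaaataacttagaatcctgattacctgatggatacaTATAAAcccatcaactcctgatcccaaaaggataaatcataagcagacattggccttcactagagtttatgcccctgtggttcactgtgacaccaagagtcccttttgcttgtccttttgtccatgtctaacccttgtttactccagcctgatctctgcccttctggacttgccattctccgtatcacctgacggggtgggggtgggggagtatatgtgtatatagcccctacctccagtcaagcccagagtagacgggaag
Apoe (chr7:19699139-19699438, minus strand): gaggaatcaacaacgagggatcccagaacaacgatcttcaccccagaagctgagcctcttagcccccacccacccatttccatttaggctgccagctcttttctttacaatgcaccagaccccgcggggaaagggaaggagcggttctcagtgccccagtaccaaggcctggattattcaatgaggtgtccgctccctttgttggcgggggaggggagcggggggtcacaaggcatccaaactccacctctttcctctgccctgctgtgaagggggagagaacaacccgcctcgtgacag
Apob (chr12:7977427-7977726, plus strand): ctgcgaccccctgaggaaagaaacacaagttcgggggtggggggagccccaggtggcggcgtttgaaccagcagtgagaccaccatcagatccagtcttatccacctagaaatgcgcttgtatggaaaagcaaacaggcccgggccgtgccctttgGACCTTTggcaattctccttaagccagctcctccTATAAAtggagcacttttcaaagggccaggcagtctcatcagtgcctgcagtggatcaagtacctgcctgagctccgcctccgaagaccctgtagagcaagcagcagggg

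Fabp1 held TATAAA with its first base at -30 from the start and GTTAAT at -107. Apob held TATAAA at -60 and, on the opposite strand, AAAGGTC at -94. Apoa2 held TATAAA at -212, and Apoa1, Apoe and Apoh held none of the 4 words. The start used lay 52 bases from the annotated start for Fabp1, 50 for Apoa1, 29 for Apob and 4 for Apoh. For Apoa2 and Apoe the distance was 0. Positions of words in different genes are therefore not directly comparable. Of all 32851 promoter windows in the table, 13.6% held TATAAA, 7.10% GTTAAT, 3.77% AAAGGTC and 4.21% AAAGTCC on either strand. Within these 6 windows Apoa1 and Apoe thus had none of the words while Fabp1 and Apob each had 2. So few windows cannot show whether such words go with the division of the cells. A match describes letters alone, and a window without one says only that those letters are not in it.

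Apoa1 and Apoa2, of high density lipoprotein, did not overlap between the groups. Apoa1, the main structural protein of that particle, had a lowest value of 4977, a median of 12087 and a highest value of 18407 CPM in hepatocyte-like cells. Among the 33 others it was listed at 0 in 28 and reached 1 CPM in 1, cell 31, with 95.01 CPM. Cell 31 was a cholangiocyte-like cell with 18 hepatocyte markers at 100 CPM, the most outside the 6. Apoa2, its partner protein on the particle, had 1809, 7583 and 10580.5 CPM as lowest, median and highest value in hepatocyte-like cells, against at most 4.72 CPM elsewhere, in cell 26. No value of either gene overlapped between the 6 cells and the remainder.

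Fabp1 and Apoc3 were as sharply divided. Fabp1 had a lowest value of 2333, a median of 6207 and a highest value of 9994 CPM in hepatocyte-like cells, and it did not reach 1 CPM in any of the 33 others, where the highest value was 0.519 CPM in cell 22, equal to 3 reads by that cell's step. Apoc3, an inhibitor of the breakdown of triglyceride-rich particles, had 692, 2779 and 5300.2 CPM as lowest, median and highest value in hepatocyte-like cells and was listed at 0 in all 33 others. The exact interval of 0 in 33 cells ends at 10.6%. Of the 4 Apoc3 transcripts, NM_023114 carried 91.8% of the summed level in hepatocyte-like cells and NM_001289833 carried 7.36%. Both have 526 bases in the annotation used, and shared reads may be divided between them with error.

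Apoh and Apoc1 were high in every hepatocyte-like cell but were met elsewhere too. Apoh, encoding beta-2-glycoprotein I, a plasma protein that binds phospholipids, had 127, 1032 and 2870.3 CPM as lowest, median and highest value in hepatocyte-like cells. Outside them it reached 1 CPM in 1 cell, cholangiocyte-like cell 14, at 129 CPM, which lies above the 127 CPM of cell 39. Apoc1, a small exchangeable apolipoprotein, had 1879, 4286 and 5292 CPM as lowest, median and highest value in hepatocyte-like cells, where NM_001110009 carried 97.5% of it. In the 33 others it was at 1 CPM or more in 9 cells and at 100 CPM or more in 6. Those 6 were cholangiocyte-like cells 14, 16, 17, 25 and 26, with 149, 1151, 1681, 358 and 236 CPM, and cell 33, with 2211 CPM. Only cell 33 passed the lowest hepatocyte-like value. Mean Apoc1 was 22.6 times as high in hepatocyte-like as in other cells, and 35.4 times without cell 33. Mean Apoh was 313 times as high, and this rested on cell 14, without which the mean of the others was 0.0132 CPM. Without cell 33 or cell 39 Apoc1 did not overlap between the groups, and without cell 14 or cell 39 neither did Apoh.

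**Figure D2:**
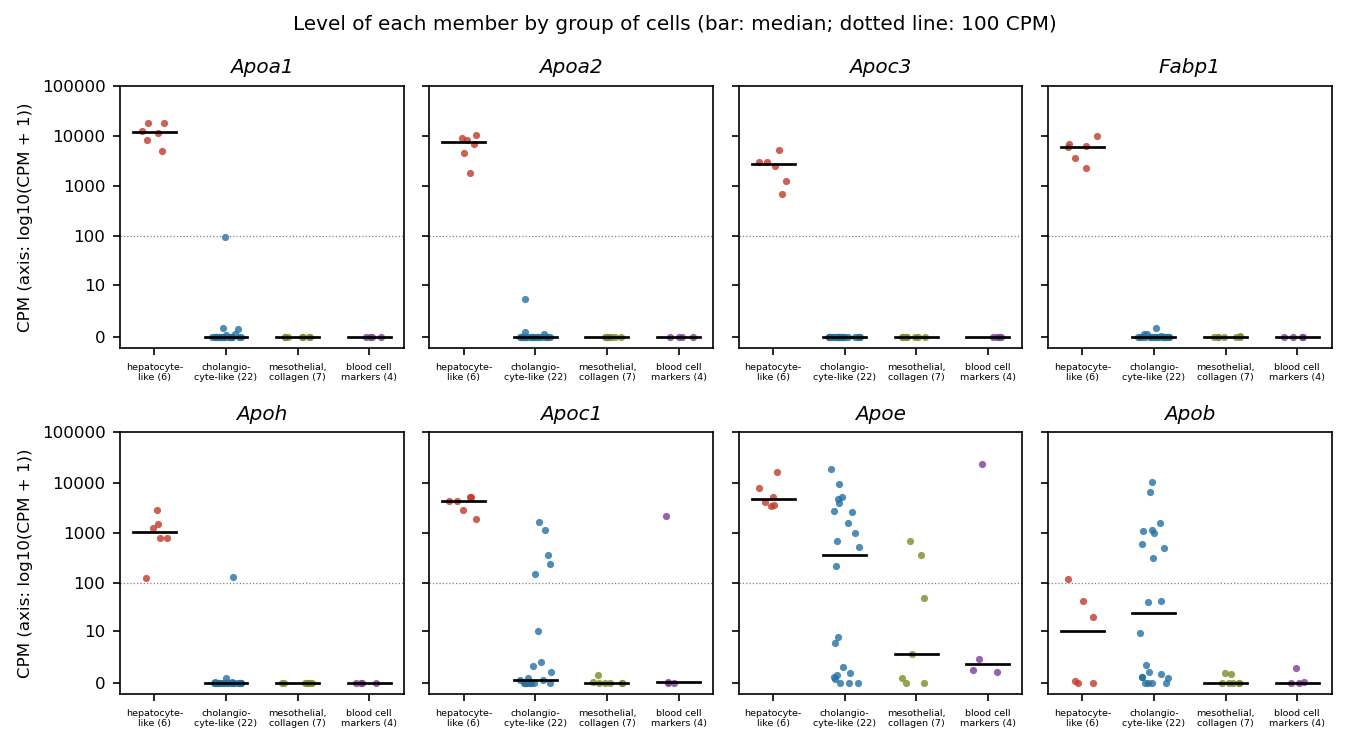
Level of each gene in CPM on a log10(CPM + 1) axis, with 1 point per cell, a bar at the median of each group and a dotted line at 100 CPM. Apoa1, Apoa2, Apoc3 and Fabp1 show no overlap between the 6 hepatocyte-like cells and the others, Apoe overlaps widely, and the highest Apob values lie in cholangiocyte-like cells.

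Apoe was the most widespread of the set. This ligand of the low density lipoprotein receptor family had 3461, 4735 and 16450.3 CPM as lowest, median and highest value in hepatocyte-like cells. It was at 1 CPM or more in 21 of the 33 others (63.6%, interval 45.1% to 79.6%) and at 100 CPM or more in 15 (45.5%, interval 28.1% to 63.6%). The 2 groups overlapped, since 6 of the 33 cells lay at or above the lowest hepatocyte-like value. Mean Apoe was 2.94 times as high in hepatocyte-like as in other cells, under the ratio of 4 used above. With every cell rescaled to the same sum of 1000000 the ratio was 4.55, and without cell 33 it was 4.16. Its side of that limit thus depends on the scaling and on 1 cell. Without cell 2, which had the highest hepatocyte-like value, the ratio was 2.10.

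The 15 cells with Apoe outside the hepatocyte-like group were of several kinds. Of the 22 cholangiocyte-like cells 12 had Apoe at 100 CPM or more (54.5%, interval 32.2% to 75.6%), with 221 CPM (cell 14) as the lowest of these and 9395 (cell 31) and 18535 CPM (cell 28) as the highest. Among the 7 cells with mesothelial and collagen markers it was at that level in cells 7 and 37, with 691 and 361 CPM. Of the 4 cells with blood cell markers it was so in cell 33 alone, with 23851 CPM, the highest Apoe level of all 39 cells. Cell 33 had the highest level of Clec4f, a receptor of Kupffer cells (the macrophages of liver), at 4341 CPM. In it 10 of 11 measured macrophage markers reached 100 CPM, with a sum of 40009.5 CPM. Clec4f was also at 206 CPM in hepatocyte-like cell 2, where 2 macrophage markers reached 100 CPM, with a sum of 1798 CPM. Cell 2 had the highest Apoe of the hepatocyte-like cells, and the part of macrophage RNA in that level was not tested. In cell 33 Apoc1 stood at 2211 CPM beside Apoe, whereas Apoa1, Apoa2, Apoc3, Apoh and Fabp1 were listed at 0 and Alb was at 292 CPM.

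Among cholangiocyte-like cells Apoe was found mostly in those that held plasma protein genes of hepatocytes. At 100 CPM, Apoe and Alb, encoding albumin, were both present in 11 of the 22 cells, Apoe alone in 1, Alb alone in 2 and neither in 8. The cell with Apoe and no Alb at that level was cell 25, with 5184 CPM of Apoe, 0.888 CPM of Alb and 8211 CPM of Trf, encoding transferrin. The cells with Alb and no Apoe were 18 and 23, with 0.452 and 1.16 CPM of Apoe. Ahsg, encoding the plasma protein fetuin-A, was at 100 CPM together with Apoe in 10 cells, and no cell had Ahsg without Apoe. With Trf there were 10 cells with both, 2 with Apoe alone, 2 with Trf alone and 8 with neither. The match was looser for Ttr, another plasma carrier gene, with 9 both, 3 Apoe alone, 4 Ttr alone and 6 neither. For Apoe and Apoc1 the count was 5 cells with both, 7 with Apoe alone and 0 with Apoc1 alone, so every cholangiocyte-like cell with Apoc1 at that level had Apoe as well. Apoe and Krt19 mostly occurred in different cells of the 22, with 2 cells having both, 10 Apoe alone, 9 Krt19 alone and 1 neither, a pair that was listed after the data were seen. The part that hepatocyte RNA from outside the cell may play in these levels was not tested.

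Each gene was also set against Alb, by CPM that was not divided by transcript length. These percentages, here and below, therefore compare groups of cells for the same gene. They do not compare the amounts of different genes. Summed over cells, Apoa1 was 44.4% of Alb in hepatocyte-like cells, with 34.9% to 64.3% in single cells, against 0.112% in cholangiocyte-like cells. Fabp1 was 21.2% of Alb in hepatocyte-like cells and 0.00104% in cholangiocyte-like cells, Apoa2 was 24.6% and 0.00598%, and Apoh 4.39% and 0.150%. Apoc3 was 9.50% of Alb in hepatocyte-like cells and was listed at 0 in all cholangiocyte-like cells. Cholangiocyte-like cell 21 had 20694 CPM of Alb, more than hepatocyte-like cells 1 and 39, yet Apoa1, Apoa2, Apoc3, Apoh and Fabp1 were all listed at 0 in it.

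For Apoe the summed ratio was higher in cholangiocyte-like cells. Summed Apoe was 24.3% of Alb in hepatocyte-like cells and 59.6% in cholangiocyte-like cells. In single cells with Alb at 100 CPM or more, Apoe was 11.7% to 59.2% of Alb, with a median of 20.9%, in the 6 hepatocyte-like cells. The 13 such cholangiocyte-like cells had 0.0529% to 554%, with a median of 18.2%, so the ranges overlapped and the medians were close. Apoc1 was 14.2% of Alb in hepatocyte-like cells and 4.18% in cholangiocyte-like cells by sums, and by the median of cells with Alb at 100 CPM it was 13.3% and 0.0535%.

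**Figure D3:**
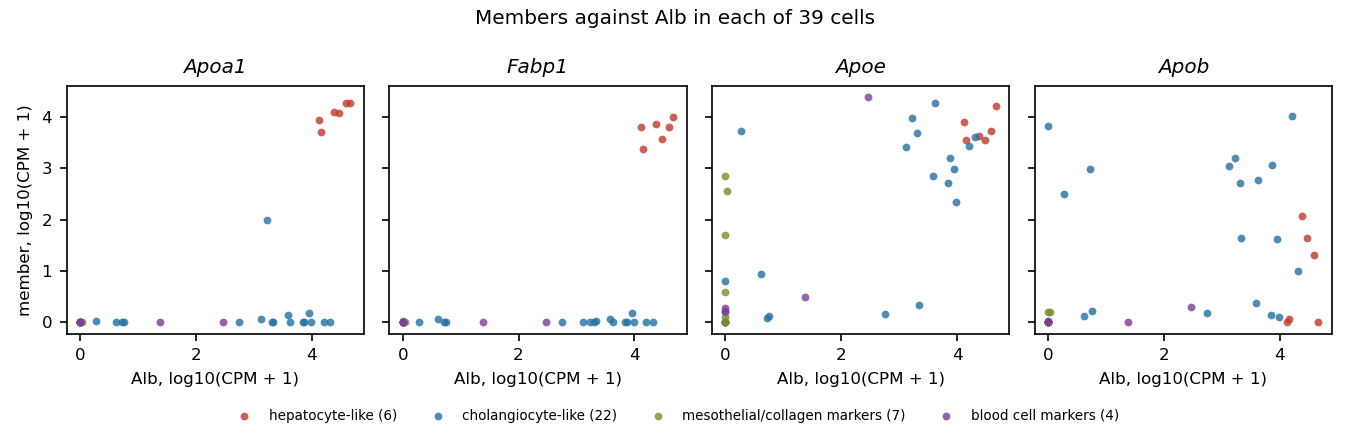
Apoa1, Fabp1, Apoe and Apob against Alb in each of 39 cells, both axes as log10(CPM + 1), with 1 point per cell coloured by marker group. Cholangiocyte-like cells with Alb above 1000 CPM lie at or near 0 for Fabp1 and, apart from cell 31 with 95.01 CPM, for Apoa1, while many of them hold Apoe and Apob.

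Apob, the scaffold of very low density lipoprotein, was the exception among the 8 genes. In hepatocyte-like cells 1, 2, 3, 4, 38 and 39 it had 0, 0, 19.7, 117, 43.3 and 0.147 CPM, so it reached 100 CPM in 1 of 6. In the 33 others it reached 1 CPM in 14 and 100 CPM in 9, all of them cholangiocyte-like. Those cells were 16, 17, 20, 25, 27, 28, 30, 31 and 34, with 1145, 10319.5, 973, 315, 1106, 595, 501, 1548 and 6458 CPM. None of the cells with mesothelial and collagen markers and 1 of those with blood cell markers reached 1 CPM. Mean Apob was 30.0 CPM in hepatocyte-like and 699 CPM in other cells, a ratio of 0.0430. The ratio was 0.0181 without cell 4 and 0.0754 without cell 17. Ratios of 0.25 or less were common among all symbols (the 63.5% given above), so this direction is not particular to Apob. Summed Apob was 0.107% of Alb in hepatocyte-like cells and 26.8% in cholangiocyte-like cells, a sum that includes Apob from cells without Alb such as cell 34. By the median of cells with Alb at 100 CPM it was 0.0256% in hepatocyte-like and 1.93% in cholangiocyte-like cells.

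Apob has by far the longest transcript of the 8, with 13934 bases against 432 to 1408 for the rows of the other 7 genes. Transcripts of 5000 bases or more, counted without Rn45s, Lars2 and Rorb, took 2.42% to 5.33% of the summed CPM of hepatocyte-like cells, against 10.0% to 25.5% in the others, with no overlap. The part that this difference in long transcripts plays in the low Apob values was not tested. Within the 22 cholangiocyte-like cells, Apob and Apoe were both at 100 CPM in 7, Apoe alone in 5, Apob alone in 2 (cells 20 and 34) and neither in 8. Cell 34 had 6458 CPM of Apob with Alb listed at 0 and 5.39 CPM of Apoe.

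**Figure D4:**
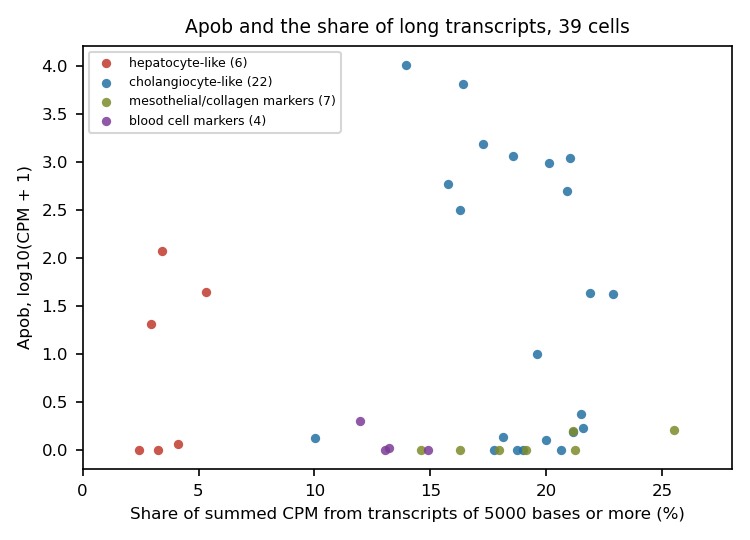
Apob as log10(CPM + 1) against the share of summed CPM from transcripts of 5000 bases or more, in percent, with 1 point per cell coloured by marker group. The 6 hepatocyte-like cells lie at 2.42% to 5.33% and low Apob, and cholangiocyte-like cells with high and with absent Apob overlap in their share of long transcripts.

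Levels of different genes can be set against each other only per length, so each transcript was divided by its bases and summed per gene, as CPM per 1000 bases. By the median of the 6 hepatocyte-like cells the order was Apoa2 with 14638, Apoa1 with 11678, Fabp1 with 11224, Apoc1 with 9857, Apoc3 with 5283, Apoe with 3363, Apoh with 867 and Apob with 0.711 CPM per 1000 bases. Neighbours in this order had overlapping ranges from Apoa2 down to Apoe. Apoe and Apoh, and Apoh and Apob, did not overlap, and in each of these pairs the first was higher in all 6 cells. Apoe and Apoh were divided only narrowly, with a lowest Apoe of 2458 against a highest Apoh of 2412 CPM per 1000 bases. The division by length makes no allowance for the low share of long transcripts in these 6 cells, given above. The place of Apob in the order is therefore uncertain. Apoc1 exceeded Apoc3 in 6 of 6 cells although their ranges overlapped.

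The 6 hepatocyte-like cells varied among themselves. Cell 39 had the lowest level of 7 of the 8 genes, all but Apob, and its summed CPM, 351255, was the lowest of all 39 cells. The highest level was 3.70 times the lowest for Apoa1, 5.85 for Apoa2, 2.82 for Apoc1, 7.66 for Apoc3, 4.75 for Apoe, 22.7 for Apoh and 4.28 times for Fabp1. With every cell rescaled to the same sum these ratios were 2.17, 2.25, 1.96, 3.36, 2.14, 6.81 and 1.77, in the same order of genes. Rescaling thus narrowed the spread of all 7 genes, and Apoh had the widest spread of the 7 under both scalings. After rescaling, Apoc1 and Apoh also no longer overlapped with the other cells, which made 6 of 8 genes against 2.02% of all symbols.

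The genes whose pattern over the 39 cells was most like each gene were ranked by Pearson correlation of log2(CPM + 1). All points are sorted cells of 1 labelled group that differ in depth, and the coefficients are descriptions. By Spearman correlation 0 to 3 of each list of 5 remained. For Apoa2, Apoc3 and Fabp1 the nearest genes included major urinary protein genes (Mup genes), with 0.996 between Apoa2 and Mup3, 0.996 between Apoa2 and Fabp1, and 0.999 between Fabp1 and LOC100048884. Mup genes are close copies of each other, and reads may have been divided among them wrongly. Apoa1 was nearest to Cdo1, a cysteine dioxygenase, at 0.992, followed by Serpina1d, Mup3, Orm1 and Apoa5. The genes nearest to Apoh included Slc38a3, at 0.957, Cyp3a11, Mup19 and Ugt2b36. Apoa1, Apoa2, Apoc3, Fabp1 and Apoh were at 100 CPM in each of the 6 hepatocyte-like cells.

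Correlations were lower for the genes that were also met elsewhere. The genes nearest to Apoc1 included Kng1, Apoh, Apoa2 and Hsf2, at 0.752 to 0.795. Apoe was nearest to Trf at 0.788, then to Ahsg, Itih2, Alb and Serpina1a, and the same 5 genes in the same order led when the 6 hepatocyte-like cells were left out, with 0.738 for Trf. Within the 22 cholangiocyte-like cells the nearest genes of Apoe were Ahsg at 0.831, Trf at 0.806, Cp, Itih2 and Serpina1a. Apob was nearest to Apbb2, an adaptor protein gene, with 0.712 over all 39 cells and 0.753 over the 33, and no other of the 8 genes was among its nearest 5. For the mean of the 8 genes the 10 nearest were Mup3, Gm2083, Mup11, Serpina1d, LOC100048884, Apoa5, Hrg, Saa1, Mup14 and Orm1, at 0.930 to 0.933.

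Several of the 8 genes lie side by side in the genome. Apoe and Apoc1 are neighbours on chromosome 7 with Apoc4 and Apoc2, and Apoa1 and Apoc3 are neighbours on chromosome 9 with Apoa4 and Apoa5, by gene order in GRCm38.p6. On chromosome 9, Apoa5, a regulator of triglyceride breakdown, reached 100 CPM in all 6 hepatocyte-like cells and in 0 of the 33 others, like Apoa1 and Apoc3. Apoa4 was lower, with 0.106, 13.5 and 419 CPM as lowest, median and highest value in hepatocyte-like cells, and at most 0.161 CPM elsewhere. On chromosome 7, Apoc4 reached 100 CPM in all 6 hepatocyte-like cells and in 0 of the 33 others, and Apoc2, the activator of lipoprotein lipase, in 3 of 6 and in 2 of 33. Both are uncertain, since a further annotated gene, Gm44805, overlaps them. Outside hepatocyte-like cells Apoe was at 100 CPM in 15 cells, its neighbour Apoc1 in 6 and Apoc4 in 0.

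**Figure D5:**
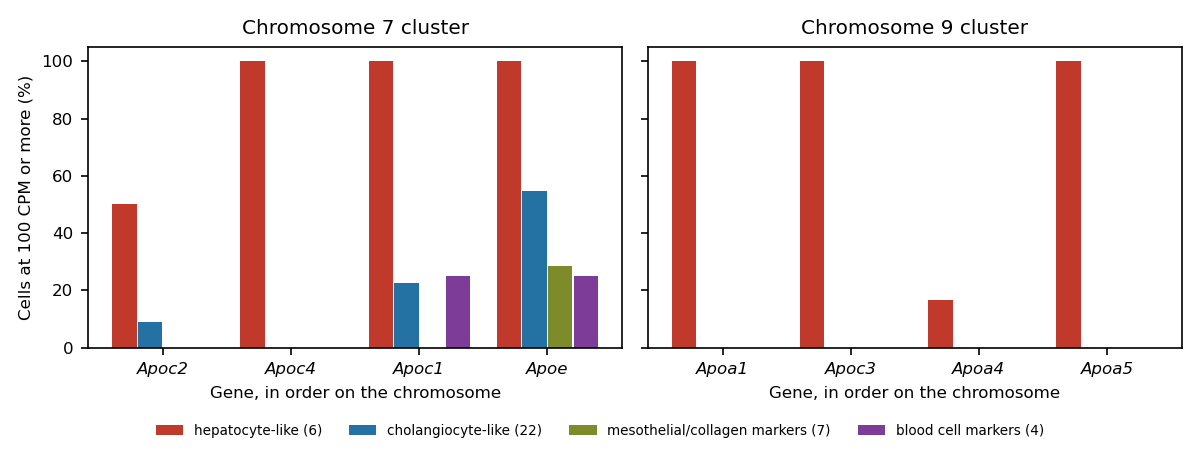
Share of cells at 100 CPM or more, in percent, for the genes of the chromosome 7 and chromosome 9 clusters in their order on the chromosome, with 1 bar per marker group. On chromosome 9 every group other than the 6 hepatocyte-like cells stands at 0%, and on chromosome 7 Apoe is present in all 4 groups.

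Other genes of lipid transport were read from lists by function. For the lists that follow, the shares of all symbols are those given above, 9.54% at least 4 times as high by mean in hepatocyte-like cells, 63.5% at most 1 in 4 and 1.76% with no overlap. Of 15 further measured apolipoprotein genes, 8 (53.3%) were at least 4 times as high by mean in hepatocyte-like cells, 5 (33.3%) were at most 1 in 4, and 4 (26.7%; Apoa5, Apoc4, Apof and Apon) did not overlap between the groups. The median difference of mean log2(CPM + 1) was 2.86 in this list. Clu, encoding clusterin, which also rides on high density lipoprotein, was the most widespread, at 100 CPM in 6 of 6 hepatocyte-like and 26 of 33 other cells. Its median was 1205 CPM in hepatocyte-like and 15151 CPM in cholangiocyte-like cells. By mean CPM its ratio of hepatocyte-like to other cells was 0.125.

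Genes that help load lipid onto Apob differed in both directions. Of 13 measured genes of lipoprotein assembly and secretion, 3 (23.1%, against 9.54% of all symbols) were at least 4 times as high by mean in hepatocyte-like cells, namely Mttp, Cideb and Apobec1. In the same list 7 (53.8%, against 63.5%) were at most 1 in 4, with a median log2 difference of 0.37. Mttp, the transfer protein that lipidates Apob, had 0.212, 8.59 and 49.3 CPM as lowest, median and highest value in hepatocyte-like cells, so it reached 100 CPM in none of the 6. Apobec1, the enzyme that edits Apob messenger RNA, had 1.59, 14.7 and 124 CPM. P4hb, the smaller partner of Mttp and a general folding enzyme, reached 100 CPM in 5 of 6 hepatocyte-like and 17 of 33 other cells.

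Genes that remodel particles in plasma were partly like Apoa1. Of 16 measured, 8 (50%, against 9.54% of all symbols) were at least 4 times as high by mean in hepatocyte-like cells, and 5 (31.2%, against 63.5%) were at most 1 in 4. In 5 (31.2%, against 1.76%), including Pon1, Saa1, Saa2 and Saa4, the groups did not overlap, and the median log2 difference of the list was 2.21. Pon1 and Saa4 were divided only narrowly. The lowest hepatocyte-like value of Pon1 was 0.344 CPM, against 0 elsewhere, and that of Saa4 was 12.19 CPM, against at most 12.11 CPM. Saa1, an acute phase apolipoprotein of high density lipoprotein, had 1189, 3151 and 5695 CPM as lowest, median and highest value in hepatocyte-like cells. Its relative Saa3 was different, at 100 CPM in 0 of 6 hepatocyte-like cells and in 6 of the 7 cells with mesothelial and collagen markers.

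Relatives and partners of Fabp1 varied. Of 6 measured genes of fatty acid binding proteins and related carriers, 2 (Fabp2 and Scp2; 33.3%, against 9.54% of all symbols) were higher by that limit in hepatocyte-like cells and 2 (33.3%, against 63.5%) at most 1 in 4, with a median log2 difference of 2.31. Fabp2, the intestinal fatty acid binding protein, did not overlap, with 6.82, 58.1 and 339 CPM as lowest, median and highest value in hepatocyte-like cells, and it was listed at 0 in all 33 others. Dbi, the acyl-CoA binding protein, was at 100 CPM in 6 of 6 hepatocyte-like and 23 of 33 other cells, and Scp2, a sterol carrier, in 6 of 6 and 11 of 33. Fabp5 was at 100 CPM in 0 of 6 and 3 of 33. Of 27 genes of fatty acid uptake and oxidation, 6 (22.2%, against 9.54% of all symbols) were at least 4 times as high and 4 (14.8%, against 63.5%) at most 1 in 4, with a median log2 difference of 2.20. Slc27a5, a bile acid and fatty acid ligase, and Acaa1b, a peroxisomal thiolase, did not overlap. Etfb, of mitochondrial electron transfer, was at 100 CPM in 6 of 6 hepatocyte-like and 14 of 33 other cells.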

How the data were processed

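The authors deposited 1 table of log2 values for 13568 RefSeq transcripts in 39 cells. The submitters' processing notes name genome build mm9 and the tools edgeR (version not stated), Bowtie 0.12.9 and eXpress 1.5.1, without order or settings. The lowest deposited log2 value, -2.58, equals 0.167 on the linear scale and was taken as no reads. Each value was raised as a power of 2 and 0.167 was subtracted. The scale is inferred, and CPM is the name used for it here. Linear sums per cell were 351255 to 3128332, so a scaling factor per cell is included and levels between cells depend on it. The plan allowed for counts, but no count model was fitted because the values are not counts.

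The 8 genes, the lists and the tests were chosen with earlier results of these data known. Of 143 cell type markers 109 were measured, and the 107 at 1 CPM in at least 3 cells entered Ward clustering of log2(CPM + 1), with 2 to 6 clusters tried and the silhouette deciding (0.417 for 2 clusters). The division into 4 (silhouette 0.344), leaving out cells 38 and 39 or each cell in turn, rescaling without Rn45s, Lars2 and Rorb, and the pairing of Apoe with Krt19 were chosen after seeing the data. Named genes were all 8 genes, the 5 symbols with the highest Pearson correlation among those at 1 CPM in at least 4 cells (10 for the mean of the 8), and the list genes at 100 CPM in the most cells of each group (3 per list). A few other list genes were named with their values known, and some genes that the rule names are not reported here. No cell was removed and no doublet caller was run.

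Transcript lengths were those of GENCODE M21, found for 93.7% of transcripts, and promoters those of RefSeq for GRCm38.p6. That build differs from mm9, and the deposited table holds no coordinates. The calculations used Python 3.11.15, numpy 2.4.6, pandas 2.3.3, scipy 1.17.1 and scikit-learn 1.9.0, and the separation and ratio counts were tested on simulated data. The reads carry no molecular identifiers that the labels name, so they need not be independent molecules.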

Additional observations from a re-analysis of the deposited data

How the results depend on the processing

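No paired analysis was possible because the labels name 1 group with no replicate numbers. The 6 cells with 5 or more genes at 100 CPM were also 6 at 1, 10 and 1000 CPM, with 7 of 8 genes required, after either rescaling and with the highest transcript row per symbol. The count was 10 for any value above 0 or with 3 of 8 genes required, and 4 without cells 38 and 39. The 4 genes that did not overlap were 4 under pseudocounts of 0.1 and 10 in the clustering, average linkage on Spearman correlation and the highest transcript row, and 6 (with Apoc1 and Apoh) after either rescaling or without cells 38 and 39. The 6 genes with a mean ratio of at least 4 were 6 at a ratio of 16 and 7 at a ratio of 2 or after either rescaling. With only symbols at 1 CPM in at least 4 cells as background, 1.69% of 9646 symbols did not overlap. No cell had under 50% of the median gene number, so that planned exclusion changed nothing. Of 72 other values of single genes under alternatives, 28 moved. Of the nearest 5 genes, 0 to 3 were shared under Spearman correlation. With each cell left out in turn, 4 to 6 genes did not overlap and 6 to 7 had a mean ratio of at least 4. Depth sets what a value of 0 means, and in cells 38 and 39 it is unknown.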

Other observations

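Of 16 measured lipoprotein receptors and adaptors, 11 (68.8%) had a mean in hepatocyte-like cells of at most 1 in 4 of that in other cells, beside 63.5% of all symbols, with a median log2 difference of -0.14. Lrp1, an uptake receptor for particles with Apoe, was at 100 CPM in 3 of 6 hepatocyte-like and 8 of 33 other cells. Lsr, a lipolysis-stimulated receptor, was so in 2 of 6 and 6 of 33. Of 18 genes of lipid synthesis and storage, 1 (5.56%, against 9.54% of all symbols) was at least 4 times as high (Scd1, a fatty acid desaturase, median 546 CPM in hepatocyte-like cells) and 8 (44.4%, against 63.5%) were at most 1 in 4, with a median log2 difference of 0.24. The relative of Scd1, Scd2, was at 100 CPM in 0 of 6 hepatocyte-like and 11 of 33 other cells.

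Of 22 transcription factors known to act on apolipoprotein or Fabp1 genes, 6 (27.3%, against 9.54% of all symbols) were at least 4 times as high by mean in hepatocyte-like cells, 9 (40.9%, against 63.5%) were at most 1 in 4 and 0 did not overlap (1.76% of all symbols), with a median log2 difference of 0.55. Hnf4a was at 100 CPM in 3 of 6 hepatocyte-like cells, with a median of 88.4 CPM, and in 4 of 33 others, all cholangiocyte-like, with a highest value of 7889 CPM. In the 22 cholangiocyte-like cells Hnf4a and Apob were both at 100 CPM in 1 cell, Apob alone in 8 and Hnf4a alone in 3. Creb3l3, a factor of triglyceride genes, was at that level in 3 of 6 hepatocyte-like and 1 of 33 other cells. Srebf2, of sterol synthesis, was so in 0 of 6 and 10 of 33. Of the 7 plasma carrier genes set beside the 8 genes, 6 (85.7%, against 9.54% of all symbols) were at least 4 times as high in hepatocyte-like cells, with a median log2 difference of 9.24, and 2 (28.6%, against 1.76%), Rbp4 and Serpina3k, did not overlap. These carriers were among the hepatocyte markers used to group the cells. Their shares were therefore partly set by the grouping and are not an independent comparison.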
